A study of Rattus norvegicus with 7 samples.

Results

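The genes described here hold cells to the matrix beneath them and to each other. They are the integrin subunits, laminin chains, cadherins, catenins, claudins and connexins on the array, together with occludin, the zonula occludens genes and a few adhesion molecules. They were chosen by name: every probe set with a single platform symbol that began with Itga, Itgb, Cdh, Cldn, Gja, Gjb, Ctnn, Tjp or Icam, that began with Lam, a chain letter and a digit, or that was Ocln, Vcam1, Ncam1 or Cd44. This gave 66 probe sets for 42 genes, out of 4736 genes with a single symbol. A gene with more than 1 probe set is represented by the brightest, judged by its mean over the 7 arrays. Several well-known genes of the lung epithelium, among them Cdh1, Ctnnb1, Cldn4, Cldn18, Itga3 and Itgb6, were not among these probe sets and were not analysed here.

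The arrays held RNA of alveolar type 2 cells, the surfactant-making cells of the alveolar epithelium, from male Sprague Dawley rats. The ethanol group (3 animals, 1 array each) received a Lieber-DeCarli liquid diet in which ethanol gave 36% of the calories for 6 weeks, and the control group (4 animals, 1 array each) received an isocaloric diet without ethanol for 6 weeks. The labels give no age. In both groups the cells were isolated by immunoabsorption and the RNA was extracted with Trizol. Every control array has a lower number in its title than every ethanol array, so diet cannot be told apart from anything that follows this numbering. The ethanol arrays are labelled replicates 2, 3 and 4, and the names below follow the labels.

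Integrins are receptors of an alpha and a beta subunit that bind matrix proteins such as laminins outside the cell and link them to the actin cytoskeleton inside it. Cadherins hold neighbouring cells together and are tied to actin by catenins, while claudins and occludin seal the space between cells at tight junctions, where zonula occludens proteins anchor them. Connexins form gap junctions, channels through which ions and small molecules pass between cells. In the alveolus these contacts keep the airspace dry, and claudin composition has been a subject of work on the lung in chronic alcohol use.

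The values are log2 expression values, 1 per probe set and array, from 1.65 to 12.84. Pairs of arrays correlated at 0.929 to 0.983. The SD of the log2 values on an array, a measure of how widely an array spread its signals, was smallest on control 2 at 1.29 and next smallest on ethanol 2 at 1.34, against 1.36 to 1.46 on the others. Control 2 also stood apart on the first principal component, at 30.5 against -18.9 to 5.83. Type 2 cell transcripts were bright, with Sftpc, the surfactant protein C gene, at 12.76 to 12.84 in the controls and 12.41 to 12.78 with ethanol. The 8 measured type 2 markers of 14 had a mean log2 value of 8.94 to 9.32 in the controls and 8.64 to 9.44 with ethanol (exact permutation p = 0.714). Lyz2, at 11.47 to 12.07 and 11.21 to 11.88, is made by rat type 2 cells as well as by macrophages.

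No adhesion or junction gene passed the test between the diets. The test was limma, a linear model with a moderated variance, with Benjamini-Hochberg adjustment over all 8740 probe sets tested, and an adjusted p under 0.05 counted as passing. Of the 42 genes 0 passed, with adjusted p between 0.967 and 0.999, and over all probe sets 13 passed (0.149%). The genes lay on both sides of 0: 18 were higher with ethanol and 24 lower. Their median log2 difference (ethanol minus control) was -0.03, against -0.01 over all probe sets. The median size of a difference, regardless of sign, was 0.113 for the 42 genes and 0.112 over all probe sets. In 36 of the 42 genes the difference was smaller than 0.3.

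**Figure D1:**
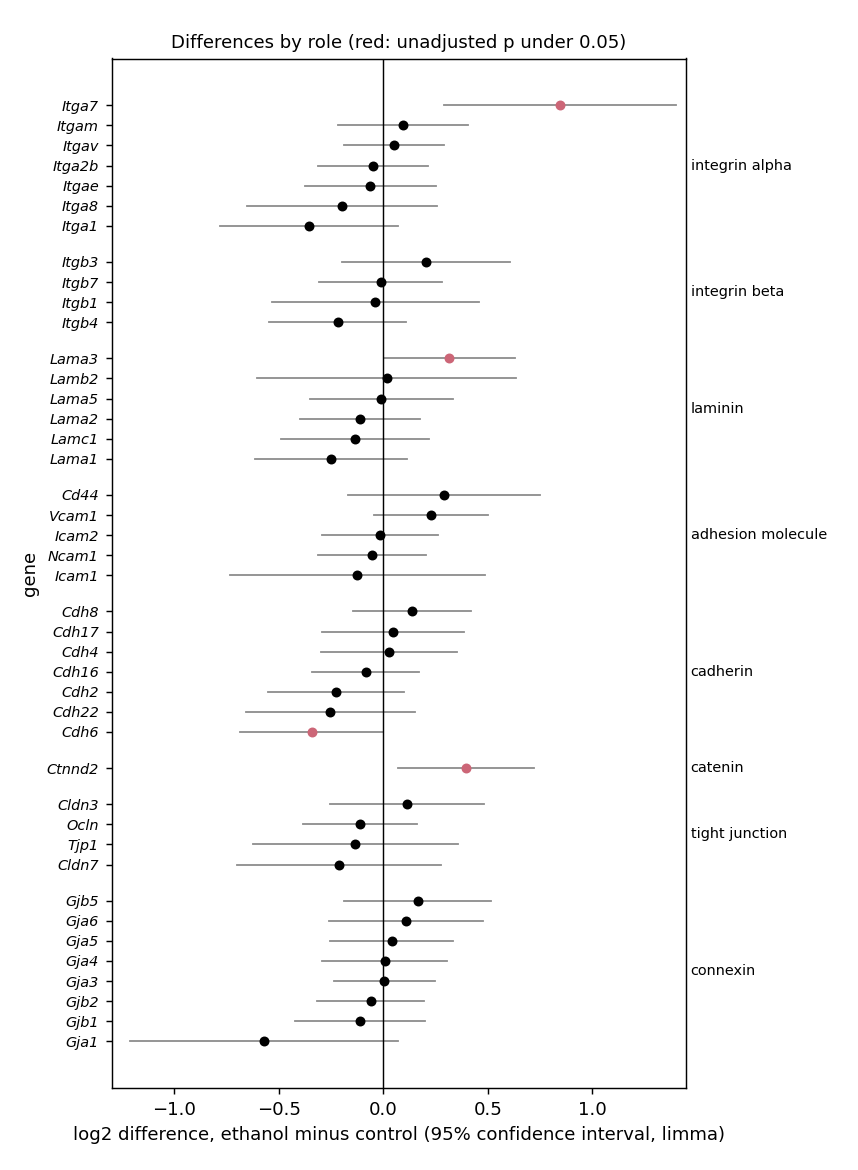
Log2 difference (ethanol minus control) of each of the 42 genes with its 95% confidence interval from limma, grouped by role; red points have an unadjusted p under 0.05. Itga7 lies farthest to the right at 0.85 and Gja1 farthest to the left at -0.57, and 0 of the 42 passed after adjustment.

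Before adjustment, 4 of the 42 genes had a p under 0.05 (9.52%), where 4.58% of all probe sets did, a share that corresponds to 1.92 of 42. Of these, 3 were higher with ethanol (Itga7, Ctnnd2 and Lama3; 2.13% of all probe sets were on that side) and 1 lower (Cdh6; 2.45%). The count moved with single arrays. It was 2 without control 1 (3.38% of all probe sets), control 3 (2.64%), ethanol 3 (2.99%) or ethanol 4 (4.27%), and 7 without control 4 (9.03%). The ethanol values lay wholly outside the control values in 3 genes (7.14%), where 5.24% of all probe sets did so. All 3 were on the higher side (2.53% of all probe sets) and 0 on the lower side (2.71%). Without control 4 this count was 12, with 15.3% of all probe sets. It was 5 without control 2 (9.60%) and 6 without ethanol 2 (12.7%).

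**Figure D2:**
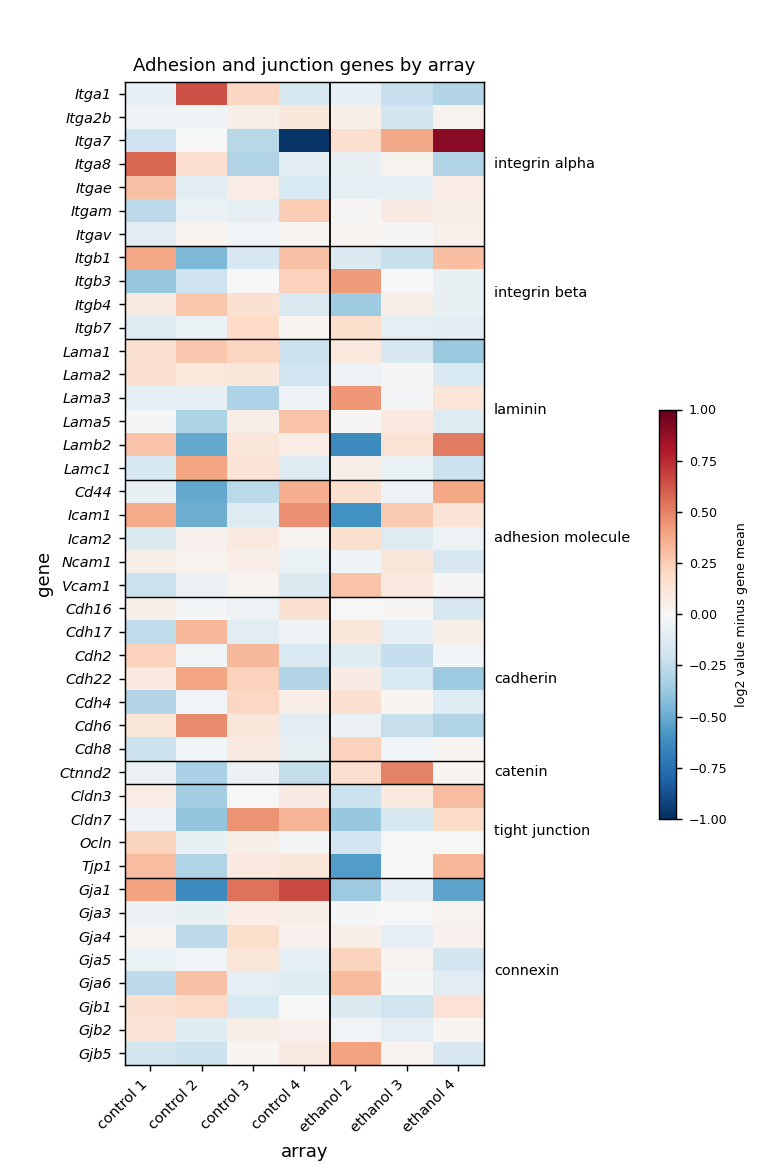
Each row is a gene, each column an array, and the colour is the log2 value minus the gene's mean over the 7 arrays, with the scale ending at -1 and 1. Apart from the single catenin, Ctnnd2, no role is uniformly higher or lower in the 3 ethanol columns; Gja1 in control 2 (3.50) and Itga7 in control 4 (5.51) stand out from the other controls.

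Among the integrin alpha subunits, Itga7 was higher with ethanol by the greatest difference of the 42 genes. Itga7 encodes integrin alpha 7, a laminin receptor known best from skeletal, cardiac and smooth muscle. It lay at 6.27, 6.49, 6.21 and 5.51 in controls 1 to 4 and at 6.65, 6.86 and 7.39 in ethanol 2, 3 and 4. Each of the 3 ethanol arrays exceeded every control, though control 4 was well below the other controls and ethanol 4 above the other ethanol arrays. The means were 6.12 ± 0.423 (SD, n = 4) and 6.97 ± 0.378 (SD, n = 3), a 1.80-fold difference (log2 0.85, SE 0.247, 95% confidence interval 0.29 to 1.40). Its unadjusted p was 0.00714 and its adjusted p in limma 0.967. With each array left out the difference ran from 0.64 to 1.00.

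The other Itga7 probe sets also read higher means with ethanol. X74293_s_at read 3.83 to 4.40 on the control arrays and 4.23 to 5.01 on the ethanol arrays (difference 0.57, unadjusted p = 0.021), and X65036_g_at at 5.46 to 6.06 and 5.73 to 6.43 (0.30, unadjusted p = 0.152). In both, the groups overlapped. Under all 18 alternatives the unadjusted p of Itga7 lay between 0.00165 and 0.0412 and its adjusted p was 0.183 or higher. The fibroblast, smooth muscle and mesothelial list had 3 of its 14 measured genes higher and 11 lower with ethanol. Its smooth muscle genes Acta2 and Myh11 lay at 6.30 to 6.70 and 4.44 to 4.71 in the controls and at 6.30 to 6.45 and 4.40 to 4.42 with ethanol. The part of these cells in the Itga7 values was not tested.

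Itga1, which encodes the alpha 1 subunit of a collagen and laminin receptor, was the alpha subunit of lowest p on the lower side. Its values were 4.51, 5.23, 4.80 and 4.43 in the controls and 4.51, 4.36 and 4.30 with ethanol. Control 2 was the highest array and the groups overlapped, with a log2 difference of -0.35 (95% confidence interval -0.78 to 0.07, unadjusted p = 0.0938). Without control 2 the difference was -0.19. The other 5 alpha subunits differed by -0.20 to 0.10, with unadjusted p of 0.352 or more. They were Itgav, the alpha subunit of receptors that activate latent TGF-beta, Itga8, a subunit of mesenchymal cells, Itga2b, the platelet subunit, and the leukocyte subunits Itgae and Itgam. Itgam was dim, at 2.35 to 2.86 in the controls and 2.62 to 2.69 with ethanol, at the 2.55th percentile of all probe set means.

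The beta subunits lay close to 0. Itgb1, the partner of most laminin and collagen receptors, was at 6.98, 6.14, 6.43 and 6.89 in the controls and at 6.45, 6.37 and 6.90 with ethanol. The ethanol arrays fell inside the control range, with a log2 difference of -0.04 (95% confidence interval -0.53 to 0.46). The sign changed with single arrays, from -0.20 without ethanol 4 to 0.08 without control 1. Itgb4, which pairs with alpha 6 in the hemidesmosome, was at 6.52, 6.70, 6.58 and 6.29 against 6.07, 6.49 and 6.35 (-0.22, 95% confidence interval -0.55 to 0.11). Itgb3, a subunit of platelet and vitronectin receptors, was at 3.65, 3.82, 4.03 and 4.26 against 4.45, 4.03 and 3.95 (0.20, 95% confidence interval -0.20 to 0.61). The groups overlapped in Itgb4 and Itgb3. Itgb7, the leukocyte partner of alpha E, differed by -0.01.

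Laminins are trimers of an alpha, a beta and a gamma chain and the main ligands of these receptors in the basement membrane. Lama3, the alpha chain of the laminin that anchors epithelia, lay at 3.44, 3.43, 3.22 and 3.49 in the controls and at 3.96, 3.51 and 3.65 with ethanol. All 3 ethanol arrays lay above the controls, ethanol 3 by the least, and the probe set was dim, at the 16.8th percentile of all probe set means. The log2 difference was 0.31 (SE 0.140, unadjusted p = 0.0494, limma adjusted p = 0.967), and without ethanol 2 it was 0.19. Lama1, an alpha chain best known from the embryo, was at 4.86, 4.97, 4.91 and 4.49 against 4.81, 4.54 and 4.33 (-0.25, 95% confidence interval -0.61 to 0.11). Lamc1, the gamma chain shared by most laminins, was at 5.68, 6.23, 5.97 and 5.72 against 5.90, 5.77 and 5.63 (-0.13, 95% confidence interval -0.49 to 0.22). In Lama1 and Lamc1 the groups overlapped, with control 2 the highest array. Lama2, Lama5 and Lamb2 differed by -0.11, -0.01 and 0.02.

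The adhesion molecules Icam1 and Vcam1, ligands for leukocyte integrins that inflammatory signals induce, did not pass. Icam1, which type 1 cells carry abundantly, lay at 8.84, 7.98, 8.34 and 8.92 in the controls and at 7.86, 8.72 and 8.60 with ethanol. The groups overlapped, with the lowest values on control 2 and ethanol 2 (log2 difference -0.12, 95% confidence interval -0.74 to 0.49). The 8 measured genes of an interleukin 1, TNF and NF-kB response list had mean log2 values of 6.14, 5.75, 5.92 and 8.18 in the controls and 7.21, 5.91 and 7.04 with ethanol. Control 4 was the highest array in both that list and Icam1. Ethanol 2 was next highest in the list and lowest in Icam1. The part of inflammatory signals in the Icam1 values was not tested. Vcam1 was at 4.07, 4.23, 4.31 and 4.15 against 4.57, 4.38 and 4.30. Ethanol 4 fell just inside the control range, and the difference was 0.23 (95% confidence interval -0.05 to 0.50, unadjusted p = 0.0934). The other Vcam1 probe set read -0.09.

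Cd44, the hyaluronan receptor, lay at 5.51, 5.07, 5.32 and 5.95 in the controls and at 5.75, 5.54 and 5.98 with ethanol. The groups overlapped because of control 4, and the log2 difference of 0.29 (95% confidence interval -0.17 to 0.75) became 0.45 without that array, with an unadjusted p of 0.025. The 4 Cd44 probe sets ran from -0.32 to 0.29. Ncam1, a neural cell adhesion molecule, was at 5.56, 5.54, 5.57 and 5.44 against 5.46, 5.62 and 5.34 (-0.05, 95% confidence interval -0.31 to 0.21), again with overlap. Icam2, an endothelial and platelet adhesion molecule, differed by -0.01.

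Of the cadherins, Cdh6 had the lowest p. Cdh6, known from kidney, lay at 3.86, 4.22, 3.86 and 3.63 in the controls and at 3.69, 3.51 and 3.45 with ethanol. Ethanol 2 stood just above control 4, so the groups overlapped. The log2 difference was -0.34 (SE 0.152, unadjusted p = 0.0494, limma adjusted p = 0.967), and -0.23 without control 2, the highest array. The probe set was dim, at the 22.5th percentile of all probe set means. Cdh8, a neural cadherin, was at 3.42, 3.62, 3.73 and 3.56 against 3.87, 3.61 and 3.67 (0.14, 95% confidence interval -0.15 to 0.42), and its groups overlapped too. The other 5 cadherins differed by -0.25 to 0.05, among them Cdh2, the N-cadherin of mesenchymal and neural cells, at -0.22 with its other probe set at 0.09.

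The single catenin was Ctnnd2, the delta 2 catenin, a p120-type catenin that binds the cadherin tail and is best known from neurons. It lay at 4.35, 4.09, 4.35 and 4.17 in the controls and at 4.57, 4.90 and 4.43 with ethanol. Each of the 3 ethanol arrays exceeded every control, with ethanol 4 close to the highest of them. The log2 difference was 0.39 (SE 0.145, 95% confidence interval 0.07 to 0.72), with an unadjusted p of 0.0226 and a limma adjusted p of 0.967. Without ethanol 3 it was 0.26 (unadjusted p = 0.117).

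**Figure D3:**
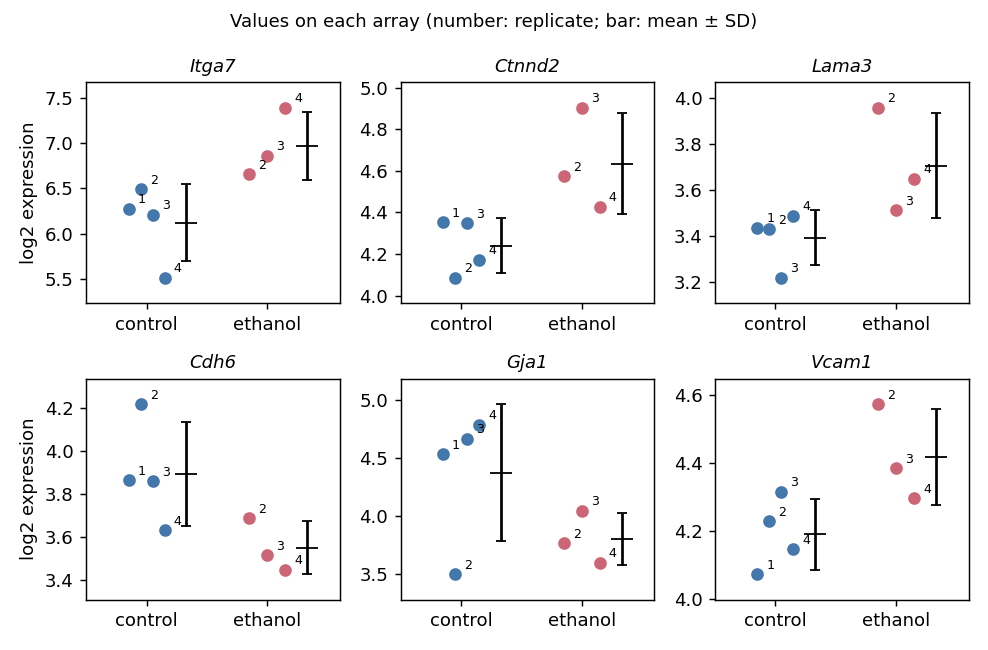
Log2 expression of 6 genes on each array, with the replicate number beside each point and the mean ± SD as a bar (4 control and 3 ethanol arrays; the axes do not start at 0). In Itga7, Ctnnd2 and Lama3 the ethanol points lie above all controls, in Cdh6 and Vcam1 a single array makes the groups overlap, and in Gja1 control 2 at 3.50 lies below every other array.

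The tight junction genes showed no difference between the diets that exceeded the spread between animals. Cldn3, a sealing claudin of type 2 cells, lay at 8.46, 8.04, 8.39 and 8.47 in the controls and at 8.17, 8.49 and 8.70 with ethanol (log2 difference 0.11, 95% confidence interval -0.26 to 0.48). Cldn7, a claudin of the lateral membrane, was at 6.65, 6.28, 7.13 and 7.02 against 6.30, 6.52 and 6.86 (-0.21, 95% confidence interval -0.70 to 0.28). The Cldn7 difference ran from -0.081 without ethanol 2 to -0.37 without control 2, and with array weights it was -0.38 (unadjusted p = 0.0464, beside 11.8% of all probe sets at an unadjusted p under 0.05). Ocln, occludin, was at 5.93, 5.63, 5.77 and 5.70 against 5.52, 5.71 and 5.71 (-0.11, 95% confidence interval -0.38 to 0.16). The groups overlapped in these genes, and neither direction was shared by all of them. Tjp1, zonula occludens 1, the scaffold that ties claudins and occludin to actin, was at 5.20, 4.59, 4.99 and 5.01 against 4.33, 4.89 and 5.22 (-0.13, 95% confidence interval -0.63 to 0.36). Its difference was 0.11 without ethanol 2.

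What these 4 genes shared, noticed after their values were seen, was the pair of arrays on which they were lowest. In each of Cldn3, Cldn7, Ocln and Tjp1, control 2 and ethanol 2 were the lowest arrays, and so they were in Icam1 and Lamb2. The order of the other arrays differed, with the highest value on ethanol 4 in Cldn3 and Tjp1, on control 3 in Cldn7 and on control 1 in Ocln. This pair was lowest in 6 of the 42 genes (14.3%), in 10.7% of all probe sets and in 21.0% of the brightest 25% of probe sets. Control 2 and ethanol 2, which share a replicate number, were also the arrays with the smallest spread of values. They had the lowest mean of the type 2 marker list too (8.94 and 8.64). The genes of that list differed on control 2: Sftpc was highest there (12.84), while Sftpa1 and Cebpa were lowest there. On ethanol 2 Sftpc was at its lowest (12.41). The part of array spread and of type 2 cell content in these low values was not tested. In a bulk isolate, fewer cells of a type cannot be told apart from less RNA per cell. With the SD of each array as a covariate, the differences were 0.03 for Cldn3, -0.31 for Cldn7, -0.14 for Ocln and -0.25 for Tjp1, with unadjusted p of 0.0717 or more.

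**Figure D4:**
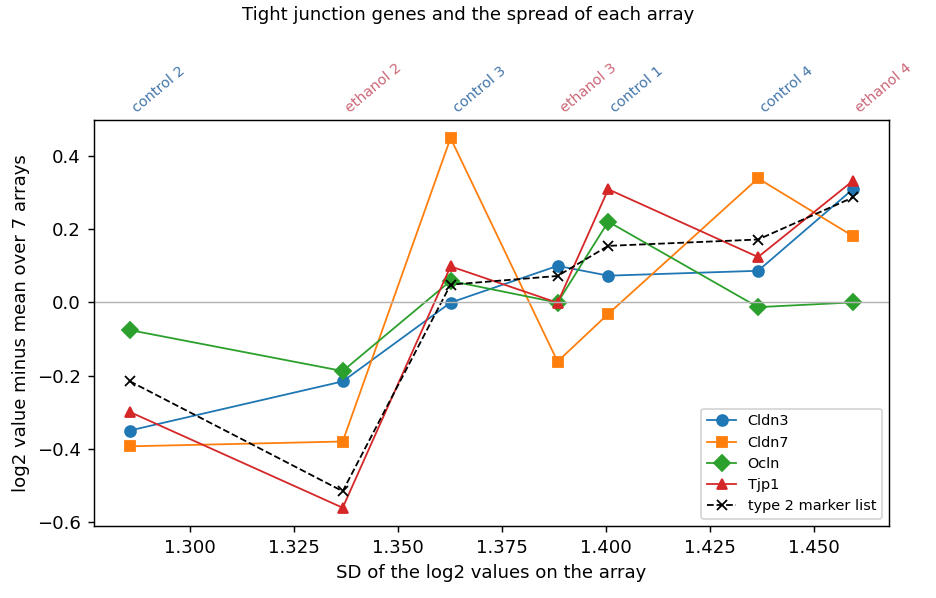
Log2 value minus the mean over the 7 arrays (vertical axis) for Cldn3, Cldn7, Ocln, Tjp1 and the mean of the type 2 marker list, against the SD of the log2 values on each array (horizontal axis); lines join the arrays of a gene in order of SD. The arrays furthest left, control 2 and ethanol 2, hold the lowest values of each gene, and each diet occurs on both sides of the plot.

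For the 4 tight junction genes the stretch before each start site is shown, 250 bases from the RefSeq promoter table of the GRCr8 build, 5′ to 3′ on the gene's strand. Any link between these stretches and the low values on control 2 and ethanol 2 was not tested. Capitals mark CAGGTG or its complement CACCTG, the E-box that Snail and Zeb repressors of epithelial genes bind, and AACCNGTT or AACNGGTT, the Grainyhead-like motif. The Cldn3 stretch is chr12:27346548-27346797 on the minus strand, that of Cldn7 chr10:55188420-55188669 on the plus strand, that of Ocln chr2:33441199-33441448 on the minus strand and that of Tjp1 chr1:128325361-128325610 on the minus strand.
Cldn3: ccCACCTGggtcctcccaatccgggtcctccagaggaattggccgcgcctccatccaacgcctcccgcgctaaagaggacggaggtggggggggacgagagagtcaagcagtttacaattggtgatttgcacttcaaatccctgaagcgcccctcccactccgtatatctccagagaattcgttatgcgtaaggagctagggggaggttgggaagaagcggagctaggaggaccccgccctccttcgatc
Cldn7: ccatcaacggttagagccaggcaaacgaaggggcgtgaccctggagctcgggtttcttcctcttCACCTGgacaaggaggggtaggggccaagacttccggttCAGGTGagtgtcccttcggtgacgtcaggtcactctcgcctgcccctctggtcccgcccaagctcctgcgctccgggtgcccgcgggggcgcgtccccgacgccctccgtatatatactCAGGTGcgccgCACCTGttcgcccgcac
Ocln: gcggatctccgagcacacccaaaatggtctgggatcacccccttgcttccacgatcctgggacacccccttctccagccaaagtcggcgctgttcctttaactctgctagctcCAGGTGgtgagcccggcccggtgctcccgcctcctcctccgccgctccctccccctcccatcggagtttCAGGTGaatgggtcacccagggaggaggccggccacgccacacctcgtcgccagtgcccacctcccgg
Tjp1: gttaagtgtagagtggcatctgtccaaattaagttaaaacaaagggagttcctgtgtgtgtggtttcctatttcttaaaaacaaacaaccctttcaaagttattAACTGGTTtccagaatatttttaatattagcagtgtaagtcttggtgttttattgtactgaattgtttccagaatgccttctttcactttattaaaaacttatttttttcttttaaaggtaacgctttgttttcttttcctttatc
The E-box stood in Cldn3, Cldn7 and Ocln, and in 15.9% of all 33469 promoters of this table over the same 250 bases, both strands searched. Cldn7 held 4 matches, at 186, 147, 28 and 17 bases before the start, Ocln held 2 and Cldn3 held 1. The Grainyhead-like motif stood in Tjp1 and in 1.76% of all promoters. The E-box was found in 8 of the 30 genes that had an entry in the table (26.7%). Tjp1 differed from the other 3 in composition, with 30.4% G and C against 59.2% to 66.4%. The motifs were picked after their matches were seen, from 14 looked for. The other 12 were GGGCGG (GC box), TGANTCA (AP-1), TATAAA, GGAANTTCC and a longer form (NF-kB), CACTTGA (NKX2-1), TGTTTAC (FOXA), GTCTAGAC (SMAD), TGACGTCA (CRE), CCGGAAG (ETS), GGAATG (TEAD) and CACCC. Of these 12, the GC box also stood in Cldn3 and Cldn7 (30.5% of all promoters) and CACCC in Cldn7 and Ocln (49.2%). CRE (1.59%) and ETS (7.27%) stood in Cldn7. A match is a run of letters and was not tested for binding.

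Among the connexins, Gja1 was lower with ethanol on average by the greatest negative difference of the 42 genes, and it did not pass the test. Gja1 encodes the most widespread connexin, which joins alveolar epithelial cells, fibroblasts and endothelium. It lay at 4.53, 3.50, 4.67 and 4.79 in the controls and at 3.76, 4.04 and 3.60 with ethanol. Controls 1, 3 and 4 lay above all ethanol arrays, while control 2 was the lowest array of all. The means were 4.37 ± 0.591 (SD, n = 4) and 3.80 ± 0.226 (SD, n = 3), a log2 difference of -0.57 (SE 0.285, 95% confidence interval -1.21 to 0.07), with an unadjusted p of 0.0754 and a limma adjusted p of 0.967. Without control 2 the difference was -0.86, with an unadjusted limma p of 0.00023 and an adjusted p of 0.111, so it did not pass then either. In that setting 4.71% of all probe sets had an unadjusted p under 0.05. Leaving out the control that lay below the ethanol arrays necessarily widened the difference.

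The fibroblast, smooth muscle and mesothelial list, whose cells also make Gja1, had a mean log2 value of 5.12 to 5.44 in the controls and 5.06 to 5.14 with ethanol over 14 measured genes of 16. Of these genes 11 were lower with ethanol, 5 at an unadjusted p under 0.05 (2.45% of all probe sets were lower at that p), and the exact permutation p of the list mean was 0.0857. On control 2, where Gja1 was lowest, the list mean was 5.41. Its collagen genes were measured on all arrays, Col1a1 at 5.76 to 6.52 in the controls and 5.61 to 5.92 with ethanol and Col3a1 at 5.39 to 7.09 and 4.88 to 5.73. The part of these cells in the Gja1 values was not tested.

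The remaining connexins differed little. Gjb1, a connexin of secretory epithelia, was at 6.70, 6.74, 6.40 and 6.55 in the controls and 6.41, 6.35 and 6.70 with ethanol (-0.11, 95% confidence interval -0.42 to 0.20). Gjb2, its frequent partner in mixed channels, was at 4.87, 4.62, 4.80 and 4.78 against 4.72, 4.65 and 4.76 (-0.06, 95% confidence interval -0.32 to 0.19). In both, the ethanol arrays lay within or overlapped the control range. Gjb5, a connexin of stratified epithelia, was at 6.19, 6.16, 6.39 and 6.46 against 6.77, 6.41 and 6.21 (0.16, 95% confidence interval -0.19 to 0.52), with other probe sets at -0.03 and 0.23. Gja3, Gja4, Gja5 and Gja6 differed by 0.0047 to 0.11, with unadjusted p of 0.528 or more. The other Gja5 probe sets read -0.02 and 0.28 (unadjusted limma p of 0.878 and 0.0966).

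For 17 of the 42 genes the array carried several probe sets, which gives another reading of the same RNA. In 7 of these genes all probe sets lay on the same side of 0, and in 10 they lay on both sides. The 7 were Cdh22, Cdh8, Cldn3, Cldn7, Icam1, Itga7 and Ncam1. Ocln read -0.12, -0.11 and 0.09, and Lamb2 read 0.02 and -0.24.

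**Figure D5:**
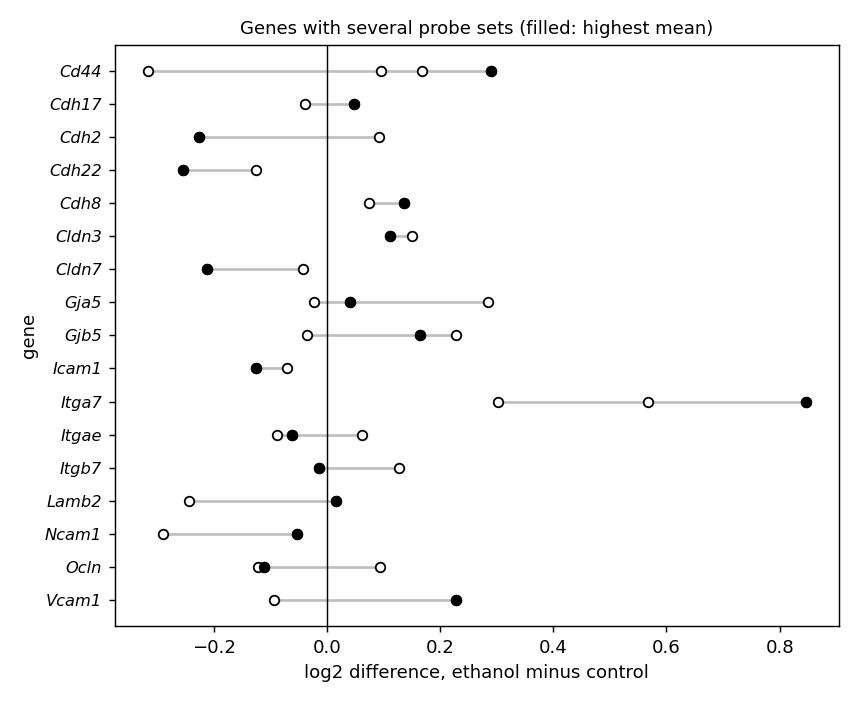
Log2 difference (ethanol minus control) of every probe set of the 17 genes with several, 1 row per gene; the filled point is the probe set with the highest mean, used for that gene. Only in Itga7 do all probe sets lie beyond 0.3, and in 10 genes the points fall on both sides of 0.

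The confidence intervals, each for a gene taken alone, bound the difference in probe set signal. No detection calls were used, so on dim probe sets a narrow interval may not bound the difference in the transcript. Of the 42 genes, 7 lay in the lowest 25% of probe set means, among them Itgav at the 20.5th percentile. In 40 of the 42 genes the 95% confidence interval excluded a log2 difference of 1 in either direction, and in 22 it excluded 0.5. The exceptions to the first were Itga7 and Gja1. The interval reached 0.327 to either side of the difference in the median gene, from 0.238 for Itgav to 0.641 for Gja1. With each array left out in turn, 25 of the 42 genes kept the sign of their difference and 17 changed it.

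Other genes of the same machinery were measured from lists that share no gene with the 42. In the list of integrin-linked adaptors and kinases, 0 of 20 genes passed limma after adjustment, 5 were higher and 15 lower (median log2 difference -0.08). At an unadjusted p under 0.05, Msn, which encodes the membrane-actin linker moesin, was lower, at 5.12 to 5.43 in the controls and 4.31 to 4.89 with ethanol (-0.72, unadjusted p = 0.00166, adjusted p = 0.468). Ptk2, the focal adhesion kinase that integrins activate, was at 4.61 to 4.94 and 4.92 to 5.35 (0.37, unadjusted p = 0.0301, adjusted p = 0.967). These are 2 of 20 genes, beside 4.58% of all probe sets.

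In the list of matrix ligands and basement membrane genes, 0 of 14 passed and 12 were lower (median -0.12), with 0 at an unadjusted p under 0.05. The lowest p was that of Tnc, tenascin C, at 7.49 to 7.95 and 7.81 to 8.30 (0.32, unadjusted p = 0.0716). Fn1, the fibronectin gene, differed by -0.10. Of 18 other adhesion and junction genes 0 passed, 9 were higher and 9 lower (median -0.01), and Nectin1, an adherens junction molecule, had the lowest p (0.25, unadjusted p = 0.103). Epcam, an epithelial adhesion molecule, was at 6.79 to 8.09 and 6.46 to 7.66 (-0.52, unadjusted p = 0.152). Of the 8 genes of the interleukin 1, TNF and NF-kB list 0 passed and 6 were higher (median 0.26). The list mean differed by 0.22 (exact permutation p = 0.857). Nfkbia, the NF-kB inhibitor gene, had an unadjusted limma p of 0.0391. It was 1 of 8 genes under 0.05, beside 4.58% of all probe sets.

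Markers of other cells in the isolate were compared as the mean log2 value of each list. In the T and natural killer cell list all ethanol arrays lay below all controls, at 4.53 to 4.63 in the controls and 4.39 to 4.51 with ethanol (exact permutation p = 0.0286, the smallest that 35 splits allow, adjusted p = 0.286 over 10 lists). The airway list was at 6.14 to 7.01 and 6.76 to 7.05 (adjusted p = 0.286 by exact permutation), and the fibroblast, smooth muscle and mesothelial list had the same adjusted p. The macrophage and monocyte list (9 genes of 15) was at 5.62 to 5.87 and 5.62 to 5.89, the endothelial list (11 of 14) at 5.16 to 5.23 and 5.07 to 5.21, and the neutrophil list (3 of 9) at 3.42 to 3.67 and 3.44 to 3.67. The type 1 cell list was at 6.09 to 6.49 and 6.10 to 6.44, the B cell list at 4.97 to 5.09 and 4.88 to 5.05, and the platelet list at 4.51 to 4.76 and 4.65 to 4.77. The adjusted p of these 6 lists and of the type 2 list lay between 0.714 and 1. No value is 0 on this scale, and the defining neutrophil genes S100a8 and S100a9 were dim, at 2.84 to 3.42. The part of these cells in the leukocyte, platelet and endothelial genes above was not tested.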

How the data were processed

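RNA of alveolar type 2 cells was measured on Affymetrix arrays, 1 per animal (4 control, 3 ethanol). The deposited value table holds 1 log2 value per probe set and array, per the range of the deposited values; the authors' summarisation, background correction and normalization are not given in the sources used here. Of 8799 probe sets, 59 array controls were left out. Genes were named from the platform annotation (7006 probe sets with 1 symbol, 308 with several, 1426 with none). All 42 Entrez identifiers matched their symbol in the RefSeq table.

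The ethanol minus control difference was fitted with limma 3.58.1 in R 4.3.3 (lmFit, eBayes) over all 8740 probe sets on the values as deposited. Benjamini-Hochberg adjustment ran over all of them, two-sided. Marker lists were compared by their mean log2 value with an exact two-sided permutation test over 35 splits, adjusted over 10 lists. No detection calls were used, and the number of arrays limits the precision. On simulated data of 8740 probe sets for this comparison, 37.3% of the differences of 1.5-fold were found, 77.6% at 2-fold and 97.3% at 4-fold. The simulated noise was normal and independent between arrays and probe sets, with the SDs shuffled over probe sets. More probe sets were changed than passed in the real data, which eases the adjusted threshold. These shares may therefore be higher than those in the real data. Alternatives covered scaling, the filter on dim probe sets, the variance prior, array weights, the choice of probe set, a replicate block, each array left out and, added after seeing the data, array SD as a covariate.

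Members given with every array were those at an unadjusted p under 0.05, the member of lowest p in each direction within a role, and a list of epithelial adhesion genes. From each pathway list, those at an unadjusted p under 0.05 or the one of lowest p were named; Fn1 and Epcam were added after their values were seen. The members and lists were chosen with earlier results of these data known.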

Additional observations from a re-analysis of the deposited data

Results flagged for a closer look

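Lama2, the alpha chain of muscle and nerve laminins, had a control array apart from the rest. Control 4 read 3.18, while controls 1 to 3 read 3.49 to 3.55. Among 52 groups of 4 control values examined in this way, 1 had such an array, and chance gives about 1 in 20.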

How the results depend on the processing

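No adhesion or junction gene passed the adjusted threshold in any alternative, and the lowest adjusted p among the members given with every array was 0.111 (limma, Gja1 without control 2). The count at an unadjusted p under 0.05, 4 on the deposited values, was 7 with array weights (11.8% of all probe sets), 2 without the dimmest 25% of probe sets (4.79%), 1 without the dimmest 50% (4.99%), 2 without variance moderation (4.20%), 6 with array SD as a covariate (8.74%) and 2 to 7 with each array left out (2.64% to 9.03%). The count of genes with separate groups, 3 on the deposited values, was 1 without the dimmest 50% (5.45% of all probe sets) and 3 to 12 with each array left out (7.21% to 15.3%). The median log2 difference was -0.060 without the dimmest 50% and -0.069 to 0.0015 with each array left out. In the dim filters fewer genes were tested; the cause of the other shifts was not tested.

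Of the 23 members given with every array, 15 stayed on one side of 0 in all alternatives run and 8 did not. With the probe set of lowest mean, Cd44 read -0.32, Ocln 0.093 and Vcam1 -0.094. Cldn3 was -0.020 after quantile normalization, and with array weights Icam1 was 0.044 and Ncam1 0.0048. With each array left out, Cldn3 ran from -0.010 to 0.25, Icam1 from -0.31 to 0.14, Itgb1 from -0.20 to 0.085, Ncam1 from -0.12 to 0.012 and Tjp1 from -0.34 to 0.11.

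Among marker lists with each array left out, the type 2 list ran from -0.26 to 0.14, type 1 from -0.073 to 0.10 (-0.033 after quantile normalization), macrophage from -0.058 to 0.078, platelet from -0.043 to 0.041 and endothelial from -0.060 to 0.011. The T and natural killer cell list ran from -0.15 to -0.094, at the smallest p that 6 arrays can give by exact permutation, 0.0667 or 0.1.

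Samples with the same replicate number deviated together at correlations of 0.425, 0.0666 and 0.432 for numbers 2, 3 and 4. Ethanol 2 and ethanol 4 correlated best with the control of the same number, and ethanol 3 with control 1. Whether the numbers pair the animals is not known, and the main fit did not pair them. Under a replicate block, where control 1 has no partner and adds nothing, 5 members had an unadjusted p under 0.05 (8.12% of all probe sets), and Itgb1 was 0.085.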
